A study of Mus musculus with 50 samples.

Results

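The Hox genes are 39 homeobox genes that lie in 4 clusters, and they were taken as every gene of the RNA count tables whose symbol is Hox, a cluster letter from a to d and a number. They make up 39 of the 24391 genes counted. The Hoxa cluster has 11 genes on chromosome 6, on the minus strand. The Hoxb cluster has 10 genes on chromosome 11 (positions 96055675 to 96227705 of mouse build mm9). The Hoxc cluster has 9 genes on chromosome 15 (102751562 to 102865592), and the Hoxd cluster has 9 genes on chromosome 2 (74506367 to 74601810). These 3 clusters lie on the plus strand. The positions are those of 1 exon per gene, so a gene at the end of a cluster can reach beyond them. Poly(A) RNA was counted in 8 of the series' 50 samples, and the other 42 were not analysed here. Of mouse embryonic fibroblasts (MEF), 1 library carried the loss of Repeat B (RepB), a tandem repeat within the long non-coding RNA Xist, and 1 library was wild type (WT). Of embryonic stem (ES) cells, 2 libraries each were RepB-/-, RepB+/- and WT. All 8 samples are labelled with a CAST/Ei x 129/Sv/Jae background, and reads that span a strain difference were assigned by the authors to either the 129 or the CAST chromosome. The ES cells were not undifferentiated: they had spent 3 days on irradiated fibroblast feeders, were freed of them, and were then differentiated for 4 days as embryoid bodies and 10 days on gelatin. The labels do not say whether the MEF lost the repeat on one or both alleles, which allele of the RepB+/- cells lost it, whether each line is 1 clone, or whether replicates are separate cultures, so a p-value here covers no more than the spread among the libraries at hand.

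Hox genes encode homeodomain transcription factors that give cells their position along the head-to-tail axis. Within a cluster the genes are ordered from low paralog numbers, used in the hindbrain and neck, to high numbers, used in the lumbar, tail and distal limb regions, and genes of the same number in different clusters are related copies. Polycomb complexes keep Hox clusters silent in cells of the wrong position, and fibroblasts keep in culture a Hox profile of the body site they came from. Xist coats the inactive X chromosome and recruits Polycomb complexes to it, and the study compared cells without and with its Repeat B.

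The total count was 18631736 reads in the RepB MEF library and 12126941 in the WT MEF library, and it lay between 8000722 and 28045645 in the ES libraries, the lowest being RepB+/- replicate 2. Hox genes took 518 and 421 CPM (counts relative to library size) of the plain total in RepB and WT MEF, and between 94.2 and 164 CPM in the ES libraries. Xist itself was counted in every library, at 567 and 477 CPM (here and below scaled by TMM) in RepB and WT MEF and at 771 to 1101 CPM in ES cells, and this value cannot check the labels, since the repeat is only part of the gene. The fibroblast gene Col1a1 had 20418 CPM in RepB MEF and 25213 CPM in WT MEF, and the stem cell gene Pou5f1 was at 0 in both. Of the 17 fibroblast and mesenchyme markers, 7 were higher in both MEF libraries than in all 6 ES libraries, 5 overlapped and 5 were lower (Dcn, Lum, Postn, Fbln1 and Fap). Dcn had 0.289 CPM in RepB MEF and 3.59 CPM in WT MEF, against 165 to 378 CPM in ES cells, and Lum was at 0 in RepB MEF and 0.486 CPM in WT MEF, against 157 to 249 CPM in ES cells. Thy1 was at 0 in RepB MEF and at 11.4 CPM in WT MEF. In ES cells Pou5f1 still had 31.0 to 121 CPM and Col1a1 6508 to 14295 CPM. In bulk samples fewer cells of a type and less RNA per cell cannot be told apart.

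Promoter windows of 300 bases (250 before and 50 after the start, RefSeq, build GRCm38.p6) were available for 22 of the 39 genes, some with several starts. The following are the windows of the 3 Hoxa genes that were at least 2-fold higher in RepB MEF than in WT MEF, and of a Hoxb gene on either side of a change in allele use, with each CG pair in capitals. They are chr6:52218524-52218823 (Hoxa7), chr6:52227321-52227620 (Hoxa9) and chr6:52234890-52235189 (Hoxa10, the start nearer to Hoxa9), on the minus strand, and chr11:96281655-96281954 (Hoxb8) and chr11:96318017-96318316 (Hoxb4), on the plus strand.
Hoxa7: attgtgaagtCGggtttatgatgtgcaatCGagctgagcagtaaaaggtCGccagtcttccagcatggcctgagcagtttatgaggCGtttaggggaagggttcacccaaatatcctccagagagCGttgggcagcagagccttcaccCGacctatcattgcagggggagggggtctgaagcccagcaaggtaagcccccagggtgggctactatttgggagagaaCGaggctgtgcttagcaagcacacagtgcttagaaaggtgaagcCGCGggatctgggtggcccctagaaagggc
Hoxa9: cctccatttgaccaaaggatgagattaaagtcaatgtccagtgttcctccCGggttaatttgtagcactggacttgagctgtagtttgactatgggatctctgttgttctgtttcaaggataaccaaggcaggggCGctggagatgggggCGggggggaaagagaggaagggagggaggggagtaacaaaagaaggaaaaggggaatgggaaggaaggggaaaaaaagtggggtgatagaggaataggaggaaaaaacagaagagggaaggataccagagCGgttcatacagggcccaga
Hoxa10: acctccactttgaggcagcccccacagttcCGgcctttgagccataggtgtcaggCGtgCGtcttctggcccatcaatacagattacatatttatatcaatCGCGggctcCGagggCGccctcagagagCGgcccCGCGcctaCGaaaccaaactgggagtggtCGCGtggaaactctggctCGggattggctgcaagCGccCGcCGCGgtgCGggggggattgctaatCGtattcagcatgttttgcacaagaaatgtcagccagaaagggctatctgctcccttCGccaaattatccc
Hoxb8: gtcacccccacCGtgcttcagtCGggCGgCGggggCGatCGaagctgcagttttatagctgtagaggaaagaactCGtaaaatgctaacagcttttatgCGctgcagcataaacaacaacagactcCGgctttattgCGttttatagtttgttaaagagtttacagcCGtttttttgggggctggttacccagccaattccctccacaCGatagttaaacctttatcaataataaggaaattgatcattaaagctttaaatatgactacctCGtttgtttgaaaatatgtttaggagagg
Hoxb4: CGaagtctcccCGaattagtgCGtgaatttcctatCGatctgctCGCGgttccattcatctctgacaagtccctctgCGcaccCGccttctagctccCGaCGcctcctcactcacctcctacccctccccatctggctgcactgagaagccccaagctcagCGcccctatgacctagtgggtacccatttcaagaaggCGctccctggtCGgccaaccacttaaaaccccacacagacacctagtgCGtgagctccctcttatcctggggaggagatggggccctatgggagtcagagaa

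The Hoxa9 window held 4 CG pairs, the Hoxa7 window 9, the Hoxb8 window 13, the Hoxb4 window 14 and the Hoxa10 window 21. Over the 24 windows of Hox genes the number of CG pairs ranged from 4 to 45 with a median of 14.5, against a median of 7 over all 32851 windows of that length. The sequence TATAAA, searched on both strands, was in 4 Hox windows (16.7%) and in 13.6% of all windows. These are descriptions of the reference sequence, and the files give no measurement at the promoters themselves.

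Hoxb genes had the largest share in both the MEF libraries and the ES cultures, and the 2 differed in the reading of Hoxc and Hoxd genes. In RepB and WT MEF, Hoxb genes made up 74.9% and 79.7% of the summed Hox level and Hoxa genes 25.1% and 20.3%, while Hoxc and Hoxd genes were at or near 0 (levels in RPKM, reads per kilobase of exon scaled for library size). In ES cells all 4 clusters were read: Hoxb genes made up 34.8% ± 1.1 of the summed level in RepB-/- cells, 35.1% ± 2.9 in RepB+/- cells and 37.4% ± 3.2 in WT cells (SD, n = 2 each). The Hoxc share was 30.4% ± 1.0 in RepB-/-, 26.5% ± 1.3 in RepB+/- and 28.1% ± 0.60 in WT cells, and the Hoxd share was 11.1% ± 0.29 in RepB-/-, 13.4% ± 0.71 in RepB+/- and 11.7% ± 0.080 in WT cells. The summed Hox level was 251 RPKM in RepB MEF and 220 RPKM in WT MEF. It was 56.7 and 65.2 RPKM in RepB-/-, 59.8 and 75.3 RPKM in RepB+/- and 54.6 and 46.8 RPKM in WT ES cells, so that each MEF library lay far above all 6 ES libraries.

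**Figure D1:**
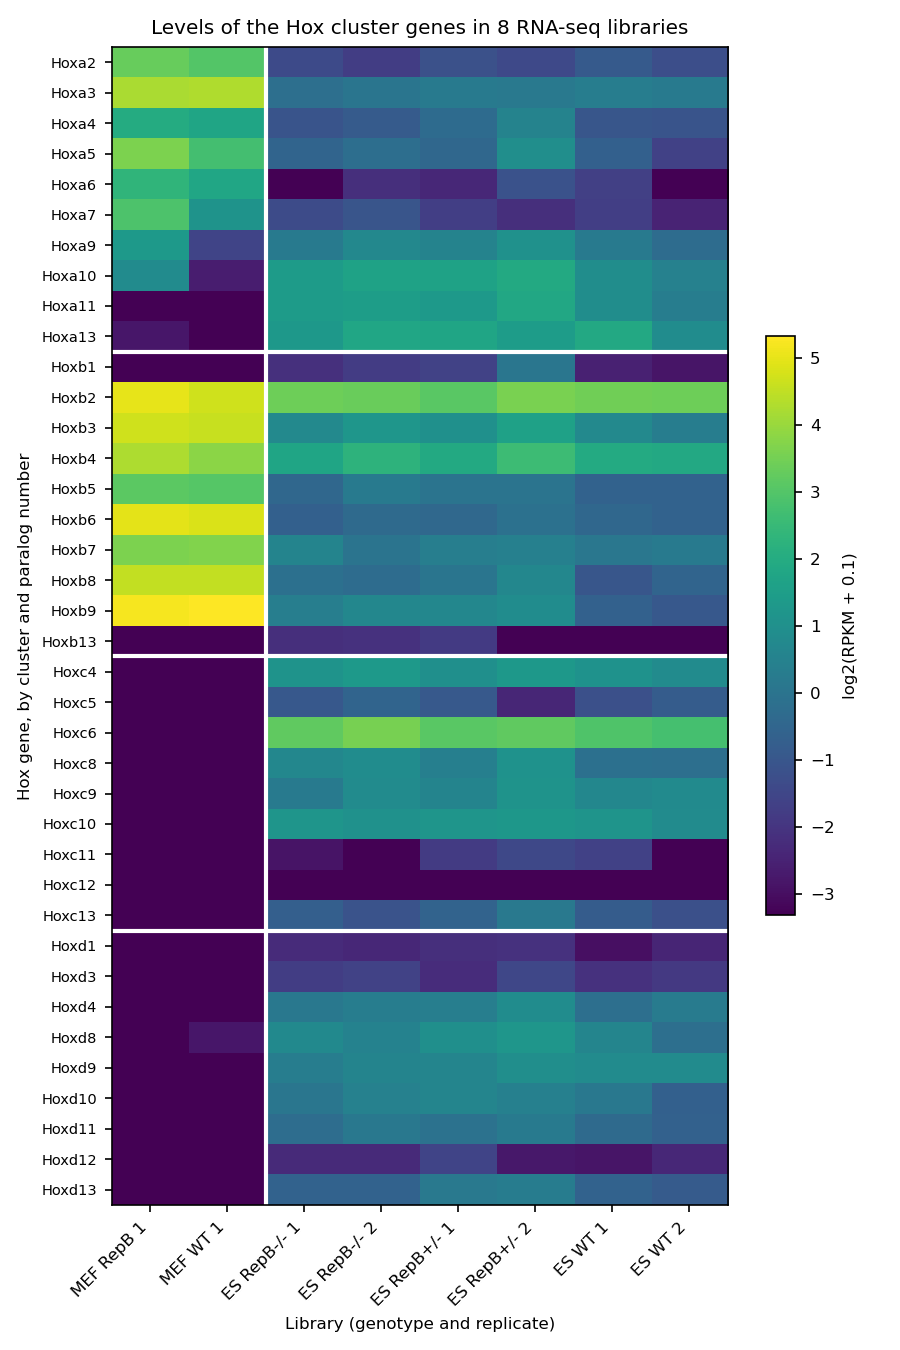
Levels of 38 Hox genes as log2(RPKM + 0.1), one row per gene in cluster and paralog order and one column per library, with MEF to the left of ES cells. In the MEF columns the signal lies in Hoxa2 to Hoxa7 and Hoxb2 to Hoxb9 and the Hoxc and Hoxd rows are dark, while the ES columns show signal in all 4 clusters.

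In MEF, Hoxa2 to Hoxa7 and Hoxb2 to Hoxb9 reached at least 1 RPKM in both libraries, each run without a gap. The highest was Hoxb9, which patterns the thoracic region, at 36.7 RPKM in RepB MEF and 39.8 RPKM in WT MEF. Hoxb2, a hindbrain gene, had 32.0 RPKM in RepB and 25.8 RPKM in WT MEF, Hoxb6 had 30.8 RPKM in RepB and 28.0 RPKM in WT MEF, and Hoxb3 had 25.8 RPKM in RepB and 24.0 RPKM in WT MEF. Hoxb9 led in both libraries, while Hoxb2 stood above Hoxb6 in RepB MEF and below it in WT MEF. The next genes were Hoxb8 (22.9 RPKM in both RepB and WT MEF), Hoxa3, which is needed for the thymus and parathyroid glands (18.6 and 19.4 RPKM in RepB and WT MEF), and Hoxb4, known from blood stem cells (18.9 and 14.0 RPKM in RepB and WT MEF). Hoxb7 had 12.1 RPKM in RepB and 12.8 RPKM in WT MEF, Hoxa2, which patterns the second pharyngeal arch, had 9.78 RPKM in RepB and 7.93 RPKM in WT MEF, and Hoxb5 had 8.79 RPKM in RepB and 8.04 RPKM in WT MEF. Lower levels were those of Hoxa6 (4.88 RPKM in RepB and 3.33 RPKM in WT MEF) and Hoxa4 (3.86 RPKM in RepB and 3.24 RPKM in WT MEF). Hoxa5 and Hoxa7, whose levels differed more between the MEF libraries, are given with that comparison. With 1 library per genotype there is no spread over samples to set these orders against.

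At the silent end, 20 of the 39 Hox genes had no read in either MEF library, among them all 9 Hoxc genes, 8 of 9 Hoxd genes, Hoxa11, Hoxb1 and Hoxb13. Hoxd8 had 0 reads in RepB MEF and 1 in WT MEF, and Hoxa13, the last gene of its cluster and a gene of the hand and foot plates, had 1 in RepB MEF and 0 in WT MEF. Hoxc6, the highest of the Hoxc genes in ES cells, had no read in RepB or WT MEF, which at a limit of 3 counts allows up to 0.109 and 0.183 RPKM, against 6.71 to 11.5 RPKM in the ES libraries.

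All but 1 of the 39 genes had a read in ES cells, the exception being Hoxc12. The highest of the genes that reached at least 1 RPKM in all 6 ES libraries were Hoxb2, with a lowest value of 8.56 and a highest of 11.9 RPKM, Hoxc6, at 6.71 to 11.5 RPKM, and Hoxb4, at 3.28 to 6.01 RPKM. Hoxb2 and Hoxc6 overlapped across the libraries. Below them, with overlapping ranges, came Hoxa13 (1.75 to 3.59 RPKM), Hoxa10 (1.30 to 3.69), Hoxa11 (1.18 to 3.56), Hoxb3 (1.16 to 2.95), Hoxc4 (1.69 to 2.43), Hoxc10 (1.70 to 2.26), Hoxc9 (1.08 to 2.08) and Hoxd9 (1.16 to 1.82). Of the last genes of the clusters, Hoxc13, known from hair, had 0.335 to 1.01 RPKM and Hoxb13, known from the prostate, 0 to 0.180 RPKM.

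Both MEF libraries lay above all 6 ES libraries for 14 of 38 Hox genes (22.9% of all genes) and below them for 19 (33.1% of all genes). The 14 were 6 Hoxa and 8 Hoxb genes, and the 19 included 7 Hoxc genes and all 9 Hoxd genes. Set against the mean of the 2 WT ES libraries, WT MEF had 82.9-fold more Hoxb9, 46.8-fold more Hoxb6, 46.6-fold more Hoxb8, 17.4-fold more Hoxa5 and 2.42-fold more Hoxb2. In the other direction, with a floor of 3 counts in WT MEF, Hoxc6 was at least 39.0-fold lower in WT MEF than in WT ES cells, Hoxc4 at least 12.7-fold, Hoxc10 at least 12.6-fold, Hoxd9 at least 12.2-fold, Hoxa13 at least 12.0-fold and Hoxa11 at least 11.6-fold. The cell types were counted in separate tables and the MEF have 1 library per genotype, so these differences carry no test.

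Within the Hoxb cluster of MEF the allele in use changed between Hoxb4 and Hoxb6. In RepB MEF, Hoxb9 had 335 reads from 129 and 1 from CAST, Hoxb8 304 and 0, Hoxb7 136 and 0, and Hoxb6 118 and 1. In WT MEF, Hoxb9 had 248 reads from 129 and 1 from CAST, Hoxb8 185 and 0, Hoxb7 110 and 2, and Hoxb6 77 and 2. The 129 share of these 4 genes was therefore 97.5% to 100% in both libraries, with exact Clopper-Pearson 95% intervals that reached no lower than 91.2%. Their neighbours on the low-number side were read from both chromosomes: Hoxb4 had a 129 share of 51.1% (94 reads from 129 and 90 from CAST) in RepB MEF and 37.7% (29 and 48) in WT MEF, Hoxb3 59.0% in RepB MEF and 62.9% in WT MEF, and Hoxb2 55.2% in RepB MEF and 56.2% in WT MEF. Hoxb5, between the groups, had 9 reads from 129 and 0 from CAST in RepB MEF and 4 and 0 in WT MEF, too few for the minimum of 20 allelic reads.

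**Figure D2:**
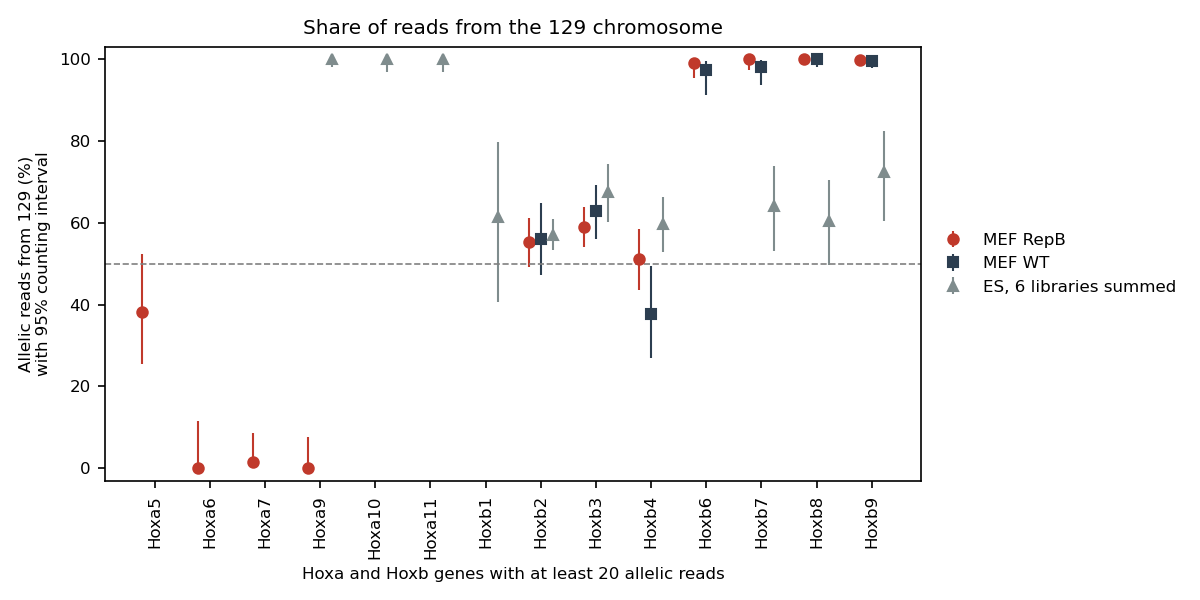
Percentage of allelic reads from the 129 chromosome for Hoxa and Hoxb genes with at least 20 allelic reads, in RepB MEF, in WT MEF and in the 6 ES libraries summed, with exact 95% counting intervals and a dashed line at 50%. Hoxb6 to Hoxb9 sit at 97.5% to 100% in both MEF libraries and Hoxb2 to Hoxb4 between 37.7% and 62.9%, while the ES points of Hoxb7 to Hoxb9 lie between 60.4% and 72.5%.

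Such shares were rare: at least 95% of allelic reads came from 129 for 4 of 11 Hox genes in RepB MEF, against 1.31% of 9681 autosomal genes, and for 4 of 7 Hox genes in WT MEF, against 0.959% of 9072. The median 129 share over those autosomal genes was 51.1% in RepB MEF and 49.2% in WT MEF. CAST reads were countable at the same genes in ES cells, where Hoxb9 had 50 reads from 129 and 19 from CAST over the 6 libraries summed, Hoxb8 55 and 36, Hoxb7 57 and 32, and Hoxb6 11 and 4. Together Hoxb6 to Hoxb9 had a 129 share of 99.8% in RepB MEF and 99.2% in WT MEF, against 65.5% in the ES libraries summed. Gm53, which the count tables place within the cluster between Hoxb13 and Hoxb9, had the same pattern, with all 158 allelic reads from 129 in RepB MEF, all 55 in WT MEF and 60.5% in ES cells. Outside the cluster, 24 genes within 1 Mb had at least 20 allelic reads in both MEF libraries, and their 129 share had a median of 51.8% (11.9% to 86.7%) in RepB MEF and 49.2% (13.8% to 93.9%) in WT MEF, none of them at 95% or above. These groups of genes were formed after the values were seen, and no test was made of them.

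Between the MEF genotypes, the 8 measured Hoxb genes had ratios of RepB over WT between 0.920 and 1.35, and the 3 Hoxa genes from Hoxa7 to Hoxa10 were at least 2-fold higher in RepB MEF. Hoxa10, which patterns the lumbar region and the uterus, had 92 counts in RepB MEF and 2 counts in WT MEF (1.69 and 0.0618 RPKM), a ratio of 27.3 with an exact 95% counting interval of 7.36 to 229. Hoxa9, a gene of the limb, trunk and blood precursors, had 132 counts in RepB and 8 counts in WT MEF (2.37 and 0.241 RPKM), a ratio of 9.81 (4.84 to 23.2). Hoxa7, a gene of the thoracic vertebrae, had 248 counts in RepB and 42 counts in WT MEF (7.35 and 2.09 RPKM), a ratio of 3.51 (2.52 to 4.99). Hoxa5, needed for the airways and the neck skeleton, followed at 393 counts in RepB and 126 counts in WT MEF (12.1 and 6.52 RPKM), a ratio of 1.85 (1.51 to 2.28). Hoxa6, which lies between Hoxa5 and Hoxa7, had a ratio of 1.46 (0.895 to 2.46). Hoxa2, Hoxa3 and Hoxa4 had ratios of 1.23, 0.956 and 1.19. Hoxa5, Hoxa7, Hoxa9 and Hoxa10 were set out for their high ratios, so no order by paralog number is read from them. Hoxa11, the next gene beyond Hoxa10, had no read in either library.

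**Figure D3:**
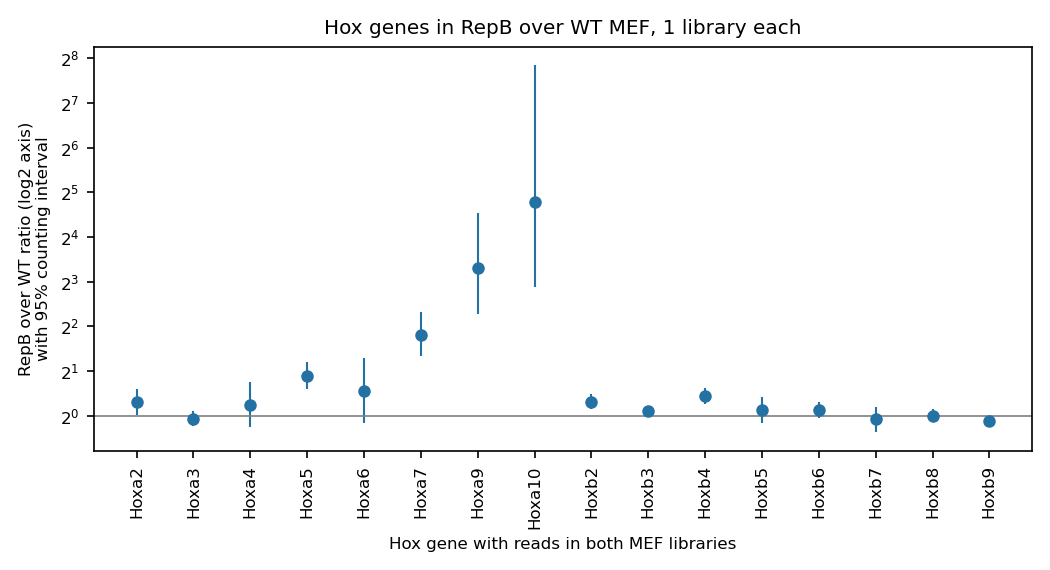
Ratio of scaled counts, RepB over WT MEF, on a log2 axis for 16 Hox genes with reads in both libraries, with exact 95% counting intervals. Hoxa7, Hoxa9 and Hoxa10 stand at 3.51, 9.81 and 27.3, and the Hoxb genes lie between 0.920 and 1.35.

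At least 2-fold higher in RepB MEF were 3 of 17 Hox genes averaging 1 CPM or more (3.33% of 11680 genes), and 0 were at least 2-fold lower (6.47% of genes). Hoxa9 (7.64 CPM in RepB and 0.777 CPM in WT MEF) and Hoxa10 (5.32 CPM in RepB and 0.194 CPM in WT MEF) reached that average through RepB MEF alone, so nothing is read from the count of 3. The other 14 had log2 ratios between -0.12 and 0.88 on a scale with a prior count of 2. Among Hoxb genes the highest ratio was that of Hoxb4, at 1.35 (1.19 to 1.53), and Hoxb2 had 1.24 (1.11 to 1.40). Hoxb9 had a ratio of 0.920 (0.852 to 0.993), which scaling to the total count alone, a change that moves the median of all genes by 0.13, brings to a log2 ratio of 0.01. The intervals cover counting error only, and with 1 library per genotype the difference has no replicate check and cannot be told apart from a difference between any 2 MEF lines. With at least 200 reads required over both libraries, Hoxa7 is the only one of the 3 that remains.

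In RepB MEF the allelic reads of Hoxa6, Hoxa7, Hoxa9 and Hoxa10 came almost entirely from CAST, and in WT MEF most of them did. Together these genes, grouped after their values were seen, had 2 reads from 129 and 146 from CAST in RepB MEF. In WT MEF they had 8 and 28, a 129 share of 22.2% (10.1% to 39.2%), against 1.35% (0.164% to 4.80%) in RepB MEF. Hoxa7 had 1 read from 129 and 62 from CAST in RepB MEF, against 5 and 11 in WT MEF. Hoxa9 had 0 and 47 in RepB MEF against 1 and 4 in WT MEF, Hoxa6 had 0 and 30 against 2 and 13, and Hoxa10 had 1 and 7 against 0 and 0. The 129 share in RepB MEF was 0% for Hoxa6 (0% to 11.6%), 1.59% for Hoxa7 (0.0402% to 8.53%) and 0% for Hoxa9 (0% to 7.55%), while Hoxa5 was read from both alleles, with 21 reads from 129 and 34 from CAST (38.2%, 25.4% to 52.3%). A share of 5% or less was found for 3 of 11 Hox genes in RepB MEF, against 1.02% of autosomal genes, and for 0 of 7 in WT MEF (0.683%), where none of these Hoxa genes had 20 allelic reads. Of the MEF libraries, Hoxa6, Hoxa7 and Hoxa9 reached that minimum in RepB MEF alone, so nothing is read from these counts. By allele, the CAST reads of Hoxa7 were 3.35-fold higher in RepB MEF (1.75 to 7.06), those of Hoxa9 6.99-fold higher (2.55 to 26.7) and those of Hoxa5 3.37-fold higher (1.40 to 9.82), scaled as above. These reads are part of the counts for which the 3 genes were set out, so they are no separate support for the difference. The CAST ratio of Hoxa6 was 1.37 (0.694 to 2.87), an interval that includes 1. The 129 ratio was 1.39 for Hoxa5 (0.609 to 3.44) and 0.119 for Hoxa7 (0.0025 to 1.06), from 1 read in RepB and 5 reads in WT MEF. The 5 genes within 1 Mb outside the Hoxa cluster with enough reads had 129 shares of 39.3% to 51.2% in RepB MEF and 31.8% to 57.3% in WT MEF. In ES cells no check of CAST reads was possible at Hoxa, Hoxc and Hoxd: of the 335 allelic reads of Hoxa6, Hoxa7, Hoxa9 and Hoxa10 over 6 libraries, 100% were from 129, and the median 129 share over all autosomal genes was 98.5% to 98.8% per ES library.

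In ES cells, each Hox gene that passed the test was higher in the RepB genotype than in WT, and none was called lower. Counts of 33 of the 39 genes were high enough to be tested; Hoxa6, Hoxb13, Hoxc11, Hoxc12, Hoxd1 and Hoxd12 were not. In RepB-/- over WT cells 5 of 33 rose (7.27% of 15149 genes rose) and 0 fell (5.49% fell), at an adjusted p of 0.05 in edgeR's quasi-likelihood test. In RepB+/- over WT cells 6 of 33 rose (9.12% of genes) and 0 fell (6.84%). Among these 6 is Hoxb1, which passed the filter on low counts through the RepB+/- libraries alone, so its call is not read. Both comparisons use the same 2 WT libraries, so they are not independent. An unadjusted p under 0.05 by edgeR was reached by 5 of the 33 in RepB-/- over WT cells, against 27.6% of all genes. In RepB+/- over WT cells it was reached by 13, against 31.1%. The number of calls is therefore not read as a trait of Hox genes. Hoxb9, Hoxa10 and Hoxa11 were called in both, and 8 genes in either.

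Hoxb9 had 1.20 and 1.51 RPKM in RepB-/- cells and 1.50 and 1.74 RPKM in RepB+/- cells, against 0.536 and 0.423 RPKM in WT cells. Every RepB library lay above both WT libraries. Its log2 fold change by edgeR was 1.46 (SE 0.30, adjusted p = 0.00471) in RepB-/- cells, and it was 1.70 (SE 0.31, adjusted p = 0.0019) in RepB+/- cells. Hoxa10 had 2.59 and 3.08 RPKM in RepB-/- and 3.03 and 3.69 RPKM in RepB+/- cells, against 1.79 and 1.30 RPKM in WT cells, again without overlap. Its log2 fold change by edgeR was 0.85 (SE 0.21, adjusted p = 0.0143) in RepB-/- cells, and it was 1.08 (SE 0.22, adjusted p = 0.00384) in RepB+/- cells. Hoxa11, needed for the forearm, the kidney and the uterus, had 2.59 and 2.70 RPKM in RepB-/- and 2.47 and 3.56 RPKM in RepB+/- cells, against 1.79 and 1.18 RPKM in WT cells. Its log2 fold change by edgeR was 0.80 (SE 0.25, adjusted p = 0.0467) in RepB-/- cells, and it was 0.93 (SE 0.26, adjusted p = 0.0237) in RepB+/- cells.

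**Figure D4:**
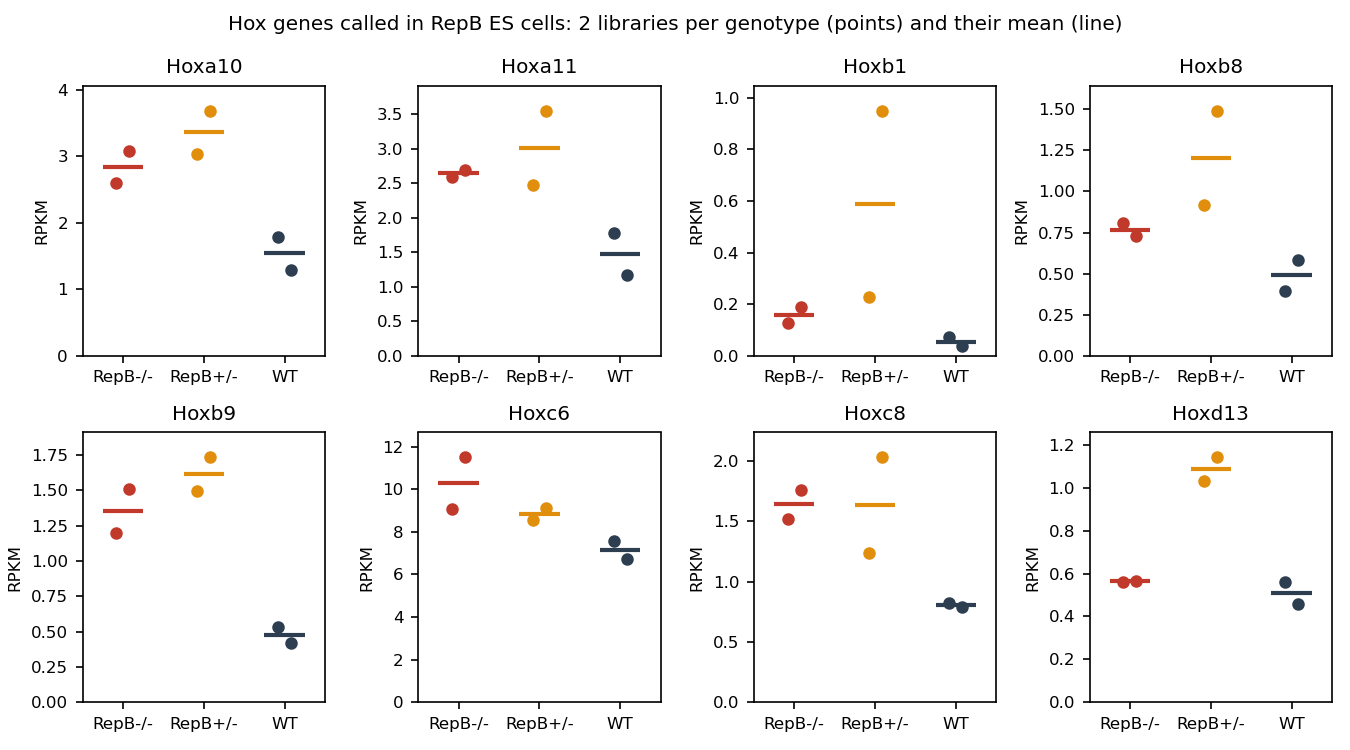
RPKM of the 8 Hox genes called in RepB-/- or RepB+/- over WT ES cells, one panel per gene, with a point for each of the 2 libraries of a genotype and a line at their mean. In each of the 8 panels both RepB+/- points lie above both WT points, and the Hoxb1 points of RepB+/- cells lie at 0.227 and 0.950 RPKM.

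The other calls were made in 1 genotype. Hoxc8, a gene of the thoracic region and the brachial motor neurons, had 1.52 and 1.76 RPKM in RepB-/- and 1.24 and 2.03 RPKM in RepB+/- cells, against 0.821 and 0.791 RPKM in WT cells, and was called in RepB-/- (log2 fold change 1.02, SE 0.30, adjusted p = 0.0355 by edgeR) and missed the threshold in RepB+/- (0.92, SE 0.32, adjusted p = 0.0594). Hoxc6 had 9.07 and 11.5 RPKM in RepB-/- and 8.55 and 9.14 RPKM in RepB+/- cells, against 7.58 and 6.71 RPKM in WT cells, and was called in RepB-/- (0.52, SE 0.16, adjusted p = 0.049). The libraries of neither genotype overlapped those of WT for these genes. In RepB+/- cells, Hoxb8 had 0.917 and 1.49 RPKM, against 0.396 and 0.586 RPKM in WT cells (log2 fold change 1.25, SE 0.38, adjusted p = 0.0339 by edgeR). Hoxd13, the gene of the digits at the end of its cluster, had 1.03 and 1.14 RPKM in RepB+/- and 0.562 and 0.460 RPKM in WT cells (1.05, SE 0.34, adjusted p = 0.049 by edgeR), with 0.563 and 0.565 RPKM in RepB-/- cells. Hoxb1, which sets the identity of the hindbrain segment that forms the facial nerve, had 14 and 16 counts in RepB+/- and 8 and 9 counts in RepB-/- cells, against 3 and 1 counts in WT cells. Hoxb1 passed the filter on low counts through the RepB+/- libraries alone, the genotype in which it was high. Nothing is read from its call, and its fitted log2 fold change of 2.87 (SE 0.89) in RepB+/- cells rests on those few reads.

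**Figure D5:**
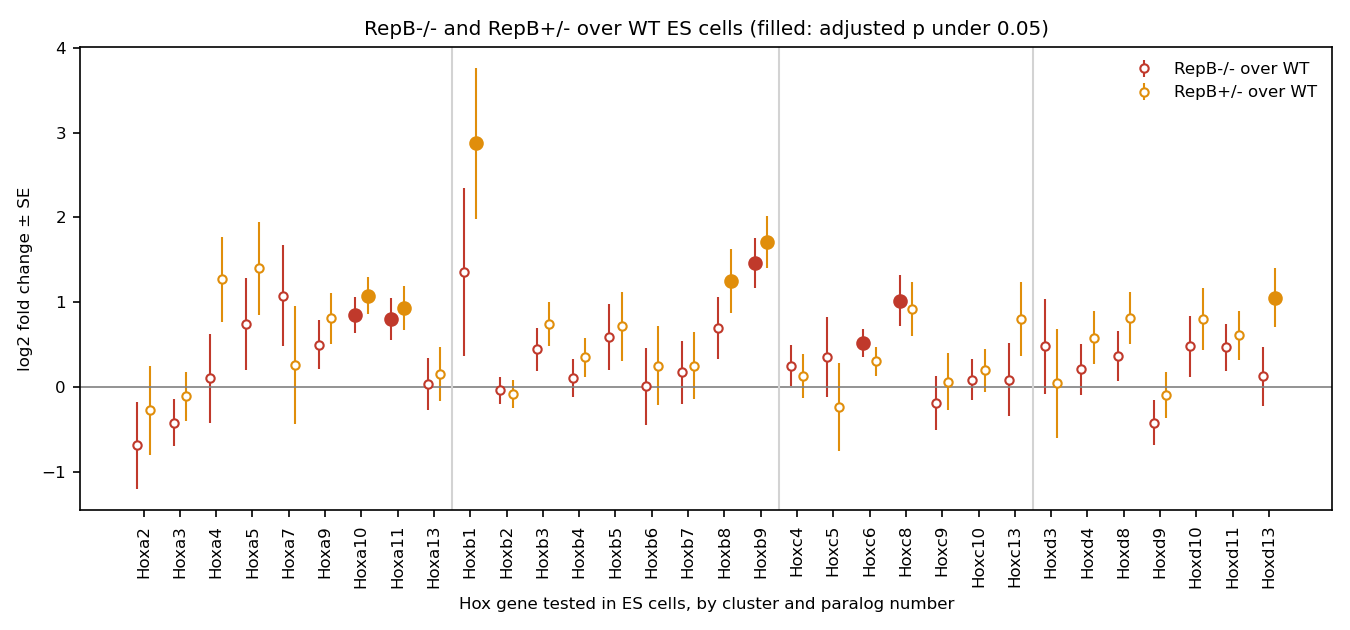
Log2 fold change with its standard error for 32 of the 33 tested Hox genes in RepB-/- and RepB+/- over WT ES cells, in cluster and paralog order, filled where the adjusted p was under 0.05. The medians over all 33 were 0.35 in RepB-/- and 0.58 in RepB+/- cells, and Hoxa2, Hoxa3, Hoxb2 and Hoxd9 lie below 0 in both.

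Over all 33 tested genes the median log2 fold change was 0.35 in RepB-/- and 0.58 in RepB+/- cells, against 0.01 and 0.02 over all genes tested. In each comparison 27 were above 0, against 51.3% of all genes in RepB-/- and 52.3% in RepB+/- cells. The 33 genes lie in 4 clusters and were read in the same libraries, and RepB+/- replicate 2 was the highest library for 22 of them (18.7% of all genes). They are not replicates of a genotype, and the 2 comparisons also share the WT libraries. Nothing is therefore read from the count of 27. With no filter on low counts, the median over 38 Hox genes was 0.37 in RepB-/- and 0.63 in RepB+/- cells. By position, the 11 genes of paralog numbers 1 to 4 had a median of 0.10 in RepB-/- and 0.12 in RepB+/- cells, the 10 genes of numbers 5 to 8 had 0.55 in RepB-/- and 0.51 in RepB+/- cells, and the 12 genes of numbers 9 to 13 had 0.30 in RepB-/- and 0.80 in RepB+/- cells. No order by paralog number is read from these medians. The Spearman correlation of paralog number with log2 fold change in Hoxa, Hoxb, Hoxc and Hoxd was 0.60, 0.32, -0.50 and -0.32 in RepB-/- cells. In RepB+/- cells it was 0.44, 0.08, 0.43 and 0.57. The only gene of numbers 1 to 4 that was called was Hoxb1, whose call is not read. Without a test, both RepB-/- libraries lay above both WT libraries for 15 of 33 genes (31.1% of all genes) and below for 5 (28.4%). Both RepB+/- libraries lay above both WT libraries for 21 (29.3%) and below for 2 (29.4%). Hoxb2, with Hoxc6 the highest Hox gene in ES cells, had log2 fold changes of -0.04 (95% interval -0.36 to 0.27) in RepB-/- and -0.09 (-0.41 to 0.24) in RepB+/- cells.

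Between the RepB genotypes, edgeR called 0 of 33 Hox genes higher in RepB-/- than in RepB+/- cells (0.0198% of all genes) and 0 lower (0.066%). DESeq2 also called 0. By edgeR 3 of the 33 had an unadjusted p under 0.05, against 6.62% of all genes, and nothing is read from that count. These 3 were Hoxd13 (log2 fold change -0.93, 95% interval -1.55 to -0.30), Hoxa4 (-1.17, -2.07 to -0.27) and Hoxb1 (-1.52, -2.83 to -0.20). The median over the 33 genes was -0.24, against -0.01 over all genes, and the RepB-/- libraries lay below both RepB+/- libraries for 10 genes (16.7% of all genes) and above for 1 (17% of all genes).

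The number of calls depended on single libraries. In RepB-/- cells, the 5 calls became 0 without RepB-/- replicate 2, 1 without WT replicate 2 and 3 without RepB-/- replicate 1 or WT replicate 1, and DESeq2 made 2. In RepB+/- cells, the 6 calls became 1 without WT replicate 2, 2 without RepB+/- replicate 2, 10 without RepB+/- replicate 1, and 3 without either RepB-/- library or WT replicate 1. Hoxb9 in RepB+/- cells was called under all 11 alternatives run, and in RepB-/- cells under 10 of 11, missing at an adjusted p of 0.0619 by edgeR without RepB-/- replicate 2. Hoxa10 was called under 10 of 11 in RepB+/- and 9 of 11 in RepB-/- cells, and Hoxa11 under 9 of 11 in RepB+/- and 7 of 11 in RepB-/- cells, DESeq2 not among the 7. Of the calls made in 1 genotype, Hoxc8 and Hoxc6 were kept under 6 of 11 each, Hoxb1 under 5 of 10, Hoxb8 under 4 of 11 and Hoxd13 under 2 of 11. The log2 fold change of Hoxb1 was 1.89 without RepB+/- replicate 2 and 3.94 without RepB+/- replicate 1. RepB+/- replicate 2, the shallowest library, was the highest of the 6 for 22 of 33 Hox genes (18.7% of all genes), and WT replicate 2 was the lowest for 18 (25.2% of all genes). The median log2 fold change was 0.42 in RepB+/- cells without RepB+/- replicate 2 and 0.47 without WT replicate 2. In RepB-/- cells it was 0.20 without RepB-/- replicate 2 and 0.26 without WT replicate 2. For RepB-/- over RepB+/- cells the median was -0.09 without RepB+/- replicate 2 or RepB-/- replicate 1, -0.42 without RepB-/- replicate 2 and -0.38 without RepB+/- replicate 1.

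Over all genes tested, 7.27% rose and 5.49% fell in RepB-/- over WT cells and 9.12% rose and 6.84% fell in RepB+/- over WT cells, and the lists of other genes that follow are to be read against these shares. Of 10 markers of undifferentiated stem cells, 7 rose and 0 fell in RepB-/- over WT cells and 9 rose and 1 fell in RepB+/- over WT cells, with a median log2 fold change of 1.30 in RepB-/- and 1.63 in RepB+/- cells. Their summed level was 558 and 471 CPM in RepB-/-, 726 and 549 CPM in RepB+/- and 252 and 302 CPM in WT cells, and 58.9 CPM in RepB and 44.8 CPM in WT MEF. The MEF sums were almost all Klf4, at 58.3 CPM in RepB and 44.2 CPM in WT MEF, with no other of the 9 markers above 0.521 CPM in RepB or 0.291 CPM in WT MEF. Pou5f1 had a log2 fold change of 1.35 (SE 0.15, adjusted p = 5.61e-05 by edgeR) in RepB-/- cells, and it was 1.63 (SE 0.16, adjusted p = 1.78e-05) in RepB+/- cells. Of 17 fibroblast and mesenchyme markers, 5 rose and 2 fell in RepB-/- and 4 rose and 1 fell in RepB+/- over WT cells, with a median log2 fold change of -0.0077 in RepB-/- and 0.19 in RepB+/- cells. Their summed level overlapped between the genotypes, at 22618 and 26268 CPM in RepB-/-, 19437 and 35114 CPM in RepB+/- and 24076 and 29985 CPM in WT cells. The highest of these 6 values was that of RepB+/- replicate 2. Pou5f1 and Col1a1 had reads in every ES library, and the part of these markers in the Hox results was not tested.

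Genes that act with or upstream of Hox genes were read beside them. Of 9 cofactors of the Pbx and Meis families, which bind DNA together with Hox proteins, 0 rose and 2 fell in RepB-/- over WT cells (Pknox2, log2 fold change -0.50, and Pbx2, -0.41) and 0 rose and 1 fell in RepB+/- over WT cells (Pbx4, -0.69). Of 10 genes that induce Hox clusters in the posterior embryo, 5 could be tested, and the growth factor gene Fgf8 rose in both, by 1.62 in RepB-/- and 2.54 in RepB+/- cells on the log2 scale, while the other 4 were not called. Fgf8 had 3.33 and 3.46 CPM in RepB-/- and 7.07 and 5.30 CPM in RepB+/- cells, against 1.69 and 0.245 CPM in WT cells. Of 16 tested genes of retinoic acid supply and response, a known inducer of low-numbered Hox genes, 2 rose and 2 fell in RepB-/- and 1 rose and 1 fell in RepB+/- over WT cells. Aldh1a1, which makes retinoic acid, rose by 1.33 in RepB-/- and 0.74 in RepB+/- cells, and the receptor gene Rxra fell by 0.44 in RepB-/- and 0.45 in RepB+/- cells on the log2 scale. The median log2 fold changes were -0.09 in RepB-/- and 0.05 in RepB+/- cells for the cofactors, -0.18 in RepB-/- and -0.35 in RepB+/- cells for the posterior inducers, and -0.07 in RepB-/- and 0.12 in RepB+/- cells for the retinoic acid genes.

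Polycomb complexes silence Hox clusters and trithorax proteins keep them active. Of 11 subunits of Polycomb repressive complex 2, 0 were called in RepB-/- over WT cells and 2 rose in RepB+/- over WT cells, the core subunit gene Suz12 by 0.43 and Mtf2 by 0.53 on the log2 scale. Of 12 subunits of canonical Polycomb repressive complex 1, Ring1 fell by 0.43 in RepB-/- and Cbx6 rose by 0.41 in RepB+/- cells, and the other 11 were not called in each. Of 8 trithorax and demethylase genes, Kmt2b fell by 0.39 in RepB-/- and Ash2l rose by 0.33 in RepB+/- cells. Their median log2 fold changes lay between -0.14 and -0.03 in both genotypes. All genes of these 3 lists had reads in at least 1 MEF library. Complex 2 genes summed to 906 and 860 CPM in RepB and WT MEF, against 1268 to 1331 CPM in ES cells. Complex 1 genes summed to 974 and 1060 CPM, against 1005 to 1096 CPM. Trithorax and demethylase genes summed to 892 and 1105 CPM, against 940 to 1257 CPM. A link to the Hoxc and Hoxd genes, of which 17 of 18 were at 0 in both MEF libraries, was not tested.

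Within and beside the clusters, 17 non-coding RNA genes were in the tables and 6 could be tested. Halr1, a non-coding RNA gene at the Hoxa cluster, rose by 2.23 (SE 0.65) in RepB-/- and 2.18 (SE 0.68) in RepB+/- cells on the log2 scale, at levels under 1 CPM, and the other 5 were not called. Of 14 tested protein-coding neighbours, Calcoco2 beside Hoxb rose by 1.44 in RepB-/- and 1.83 in RepB+/- cells, and Ttll6 (1.57) and Skap2 (0.46) rose in RepB+/- cells and did not pass in RepB-/- cells, while 0 fell in either. Of 10 tested homeobox patterning genes outside the clusters, 2 rose and 2 fell in RepB-/- and 3 rose and 2 fell in RepB+/- over WT cells: Otx2, a gene of the forebrain and midbrain, rose by 0.70 in RepB-/- and 1.60 in RepB+/- cells, and Six3, a forebrain gene, fell by 3.81 in RepB-/- and 2.74 in RepB+/- cells. Of 7 tested hindbrain and spinal cord genes, 0 rose and 2 fell in RepB-/- and 2 rose and 2 fell in RepB+/- cells, with Pax6 falling by 2.22 in RepB-/- and 1.86 in RepB+/- cells. Of 13 tested mesoderm genes, 2 rose and 1 fell in RepB-/- and 5 rose and 1 fell in RepB+/- cells, with Osr1, a gene of the kidney and lateral mesoderm, rising by 1.41 in RepB-/- and 1.28 in RepB+/- cells. The median log2 fold changes of these lists, against 0.01 over all genes in RepB-/- and 0.02 in RepB+/- cells, were 0.35 in RepB-/- and 0.64 in RepB+/- cells for the non-coding RNA genes, and 0.73 in RepB-/- and 0.57 in RepB+/- cells for the other homeobox genes. They were 0.10 in RepB-/- and 0.15 in RepB+/- cells for the neighbours, -0.38 in RepB-/- and 0.39 in RepB+/- cells for the hindbrain and spinal cord genes, and near 0 in RepB-/- and 0.19 in RepB+/- cells for the mesoderm genes. Between RepB-/- and RepB+/- cells, 1 gene of all 13 lists was called, the stem cell marker Lin28a, which was lower in RepB-/- cells.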

How the data were processed

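Poly(A) RNA-seq was counted in 8 samples. The deposited tables give raw counts, as whole numbers made by the authors, for all reads and separately for each allele, with mm9 positions per the file headers; 24 value columns in 3 tables were mapped to samples and 0 were left unmapped. Per the submitters' processing notes, tools of the series were TopHat, cutadapt, featureCounts, SAMtools, Novoalign, bedtools, Juicer and HOMER, with no role stated. Strand setting and handling of overlapping genes are not given in the sources used here, so reads of overlapping transcripts within a Hox cluster cannot be told apart. Columns ending in mus were read as the 129 allele and those ending in cas as CAST, after the strain background.

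The Hox genes, the lists of other genes and the tests were chosen with earlier results of these data known. One edgeR 4.0.16 model (R 4.3.3) covered the 6 ES libraries: TMM scaling, filterByExpr (minimum count 10, minimum total 15), a quasi-likelihood F-test on genotype with no other term, Benjamini-Hochberg adjustment over 15149 genes, called at 0.05; the common biological coefficient of variation was 9.50%. SE is the fold change divided by the square root of F. The 95% intervals of log2 fold changes are normal intervals from this SE, so they are narrower than the F-test would give. The script was tested on simulated counts first. MEF ratios are of TMM-scaled counts with no test, with log2 ratios at a prior count of 2 for genes averaging at least 1 CPM. RPKM used TMM over all 8 libraries and exon length. Counting intervals are exact at 95%, and a 0 was bounded at 3 counts; no molecular identifiers are stated, so both cover counting error only. Allele shares needed 20 allelic reads. Promoter windows came from RefSeq.

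Genes named are Hox genes called in ES cells, those of at least 1 RPKM in all 6 ES or both MEF libraries, those at least 2-fold apart in MEF with at least 20 reads, the last gene of each cluster, and up to 4 called genes per list. Gm53, Hoxd8 and the genes named only for allele reads are not covered by this rule and were picked once their values were known. Xist, the fibroblast markers Col1a1, Fbln1 and Fap, and the Hox genes named as without reads or not tested are not covered either. Alternatives were DESeq2 1.42.0, RLE scaling, no filter, fewer genotypes, a replicate block, other prior counts and scaling, and leaving out each library. Of the Hox genes, 1 is counted in the totals, fits and medians but is not reported here by itself or shown in the plots.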

Additional observations from a re-analysis of the deposited data

Results flagged for a closer look

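Hoxb9 was higher in RepB-/- than in WT ES cells, while in MEF it lay near WT, on a side that depended on the scaling. In ES cells it was higher in RepB-/- than in WT, with a log2 fold change of 1.46 and both RepB-/- libraries above both WT libraries. In MEF its ratio of RepB over WT was 0.920, with a counting interval of 0.852 to 0.993. The difference between the cell types was not tested, since MEF have 1 library per genotype, and scaling MEF to the total count alone gives a log2 ratio of 0.01.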

How the results depend on the processing

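Of 94 alternative values of results that answer a comparison, 16 moved beyond their spread or by over 1.5 times in a count, and 0 reversed. For the 6 Hox calls in RepB+/- over WT ES cells, no filter gave 11, a fit of only the 2 genotypes 3, and leaving out a library between 1 and 10; their median log2 fold change ranged from 0.42 to 0.79 when a library was left out. For the 5 calls in RepB-/- over WT, DESeq2 gave 2 and leaving out a library between 0 and 5. The Hox genes at least 2-fold higher in RepB MEF numbered 1, not 3, with at least 200 reads required. With a replicate block, the RepB+/- calls were 10 and the RepB-/- calls 5. Samples with the same replicate number deviated together with correlations of 0.186, 0.0696 and 0.108, not all above 0.1, so the labels' numbers were not taken as pairs. Of the values of single genes, 41 of 166 alternatives fell short of the threshold in the same direction. At 8000722 reads, RepB+/- replicate 2 limits low genes most: 3 counts there are 0.375 CPM. The cause of these changes was not tested.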
